A study of Homo sapiens
Mus musculus with 3 samples.

Results

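Jurkat is a human T-cell leukemia line that divides continuously in culture. The wells described here held Jurkat cells with many or few reads of 6 genes of mitosis, in ICELL8 single-well RNA-seq libraries made from an equal mixture of Jurkat, TALL-104 (human), EL4 and IVA12 (mouse) cells, for which the labels name no treatment. Of the 3 libraries, 2 (3'DE-1 and 3'DE-2) came from the 3'DE protocol and 1 (3'DE-UMI) from the 3'DE-UMI protocol, in which the cDNA is taken off the chip and the barcoding primers are digested before amplification. Per the supplement of the study, 3'DE-2 and 3'DE-UMI came from the same cell mixture and 3'DE-1 from another. Each line is an established culture, so the spread between the libraries does not cover other lines or donors.

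Human wells were first selected with at least 1000 reads, 200 genes and 90% human reads. A well was then taken as Jurkat when the sum of 6 identifiers of the J set reached 3 reads and was at least 3 times the sum of 6 identifiers of the C set. For each such well M was computed, the reads on UBE2C (ENSG00000175063), CDC20 (ENSG00000117399), CCNB1 (ENSG00000134057), PLK1 (ENSG00000166851), CENPF (ENSG00000117724) and TOP2A (ENSG00000131747) in CPM, reads per 1000000 human reads. Within each library the top 25% of wells by M, called M-high here, was set against the wells at or below the median, called M-low. The wells were thus chosen by a readout of the same tables, and the levels of the 6 genes between these classes are given as a description with no test. Of 4782 well barcodes in the read tables, 1574 were human wells by these limits, 1194 were Jurkat wells and 898 entered the comparison, 300 of them M-high and 598 M-low. By library there were 96, 107 and 97 M-high wells and 192, 213 and 193 M-low wells in 3'DE-1, 3'DE-2 and 3'DE-UMI. The top 25% of the wells fall into the M-high class by construction, so its size is no measure of the share of mitotic cells.

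The 6 genes act in one sequence of events. CCNB1 encodes cyclin B1, which activates the kinase CDK1 at the entry into mitosis, and PLK1 is a kinase that acts on centrosomes, spindle and chromosomes. CENPF binds kinetochores, and TOP2A is the DNA topoisomerase that untangles sister chromatids. CDC20 activates the anaphase-promoting complex, the ubiquitin ligase that marks cyclin B1 for destruction, and UBE2C is the ubiquitin-conjugating enzyme that works with this complex. Transcripts of such genes build up in G2 and mitosis and are low in early G1, which is why their summed share is often used to order single cells along the cycle.

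M formed a continuous range without a gap at either limit. Its median over Jurkat wells was 1726 CPM in 3'DE-1, 1495 in 3'DE-2 and 1295 in 3'DE-UMI. The top 25% began at 3769, 3162 and 3041 CPM, and the wells just outside it had 3768, 3103 and 3011. At the other limit the highest M-low wells had 1726, 1493 and 1295 CPM and the next wells above them 1734, 1498 and 1372. The highest single wells reached 13719, 20791 and 17611 CPM. No read of any of the 6 genes was found in 15 of 383, 22 of 426 and 90 of 385 Jurkat wells, and all of these fell into the M-low class. 3'DE-UMI therefore differed from the others at the low end, while its median M in M-high wells (5091 CPM) lay between those of 3'DE-2 (4789) and 3'DE-1 (5841).

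**Figure D1:**
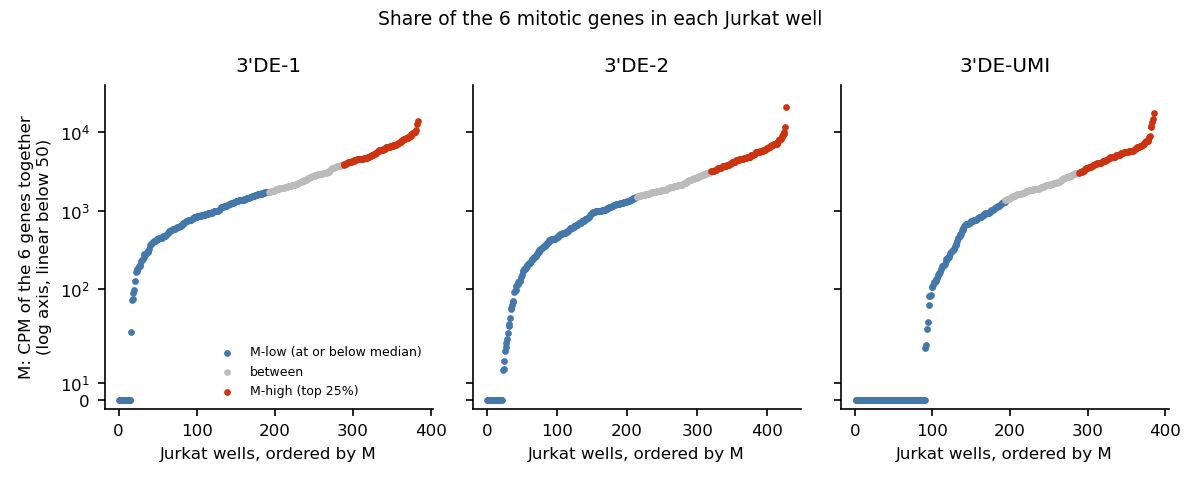
M, the CPM of the 6 genes (log axis, linear below 50), in every Jurkat well of the 3 libraries, ordered from low to high; colours mark M-low wells, M-high wells and the wells between. M runs on without a step at the class limits, and 90 of 385 wells of 3'DE-UMI lie at 0 against 15 of 383 and 22 of 426 in the 3'DE libraries.

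M-low wells still held reads of the 6 genes above the background. Over all M-low wells the 6 genes together made up 860, 651 and 458 CPM in 3'DE-1, 3'DE-2 and 3'DE-UMI. In mouse wells, which should not express the human genes, the same human identifiers made up 12.5, 24.6 and 7.25 reads per 1000000 reads of both species. After thinning to 5000 reads a read of at least 1 of the 6 genes was present in 89.3%, 75.9% and 46.4% of M-low wells and in 4.29%, 11.2% and 1.76% of mouse wells. Without thinning these shares were 92.2%, 89.7% and 53.4% in M-low wells, at median depths of 25232.5, 44715 and 19156 reads. In mouse wells they were 11.5%, 42.6% and 6.57%, at median depths of 23713.5, 31942 and 31408.5 reads. The M-low class was thus low in these genes and not free of them. Of the single genes, UBE2C in 3'DE-2 was the one found in most mouse wells, 15.1% of them, or 3.78% at 5000 reads.

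Other human wells were set beside the Jurkat wells. Applying the same limits with J and C exchanged found 95, 23 and 24 wells, which were shallower, at medians of 4740, 10680 and 5679 reads. Reads of any of the 6 genes were found in 10 of 95, 3 of 23 and 6 of 24 of them, that is 10.5% (exact 95% interval 5.16 to 18.5%), 13.0% (2.78 to 33.6%) and 25% (9.77 to 46.7%). Thinned to 5000 reads, 11.9% of 42 such wells in 3'DE-1 and 21.4% of 14 in 3'DE-UMI held a read, against 94.7% and 73.4% of Jurkat wells. In 3'DE-2 it was 0 of 17 wells, against 88.2% of Jurkat wells. An approximate upper limit, 3 divided by the number of wells and not an exact interval, allows a share of up to 17.6%. These intervals and limits cover counting error only. Summed over such wells the 6 genes made up 424 CPM in 3'DE-1, 6.51 in 3'DE-2 and 1845 in 3'DE-UMI, on 226, 6 and 346 reads. Over all Jurkat wells they made up 2774, 1962 and 2282 CPM. In 3'DE-UMI the few wells that held reads thus gave a level above that of the M-low Jurkat wells (458 CPM), so these wells were not uniformly low in the 6 genes.

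Among the regulators of the anaphase-promoting complex, UBE2C stood at 132, 104 and 14.5 CPM in the M-low wells of 3'DE-1, 3'DE-2 and 3'DE-UMI and at 1092, 1099 and 240 in the M-high wells. CDC20 stood at 108, 66.9 and 0.929 CPM in M-low wells and at 682, 413 and 125 in M-high wells, the value of 0.929 resting on 5 reads. Both genes were lower in 3'DE-UMI than in either 3'DE library in every class. In M-high wells UBE2C was present in 88.5% and 82.2% of wells of the 3'DE libraries and 35.1% of those of 3'DE-UMI, and CDC20 in 96.9%, 78.5% and 19.6%. At 5000 reads per well the order of the libraries was the same, with UBE2C in 83.3%, 74.3% and 29.0% and CDC20 in 85.4%, 61.4% and 10.8% of M-high wells.

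For the drivers of mitotic entry the libraries lay closer together. CCNB1 stood at 147, 77.5 and 108 CPM in M-low wells and at 1418, 1030 and 1825 in M-high wells. PLK1 stood at 3.62, 1.30 and 5.58 CPM in M-low wells and 88.7, 62.9 and 58.9 in M-high wells. A PLK1 read was found in 70.8%, 44.9% and 21.6% of M-high wells and in 5.21%, 6.10% and 2.59% of M-low wells. At 5000 reads per well it was found in 27.1%, 23.8% and 10.8% of M-high wells and in 1.60%, 0.985% and 2.21% of M-low wells, so that the gap between the 3'DE libraries was smaller at equal depth. The class that carries the name mitotic therefore included many wells without a PLK1 read, at the depth of these libraries.

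The chromosome proteins were found in most M-high wells. CENPF stood at 281, 206 and 158 CPM in M-low wells and at 1621, 1253 and 1289 in M-high wells. TOP2A stood at 187, 195 and 171 CPM in M-low wells and at 1424, 1177 and 1745 in M-high wells. In M-high wells CENPF was present in 99.0%, 94.4% and 82.5% and TOP2A in 96.9%, 95.3% and 80.4%. The wells between the classes lay between them for each of the 6 genes in each library, which choosing the classes by the sum of these genes favours.

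**Figure D2:**
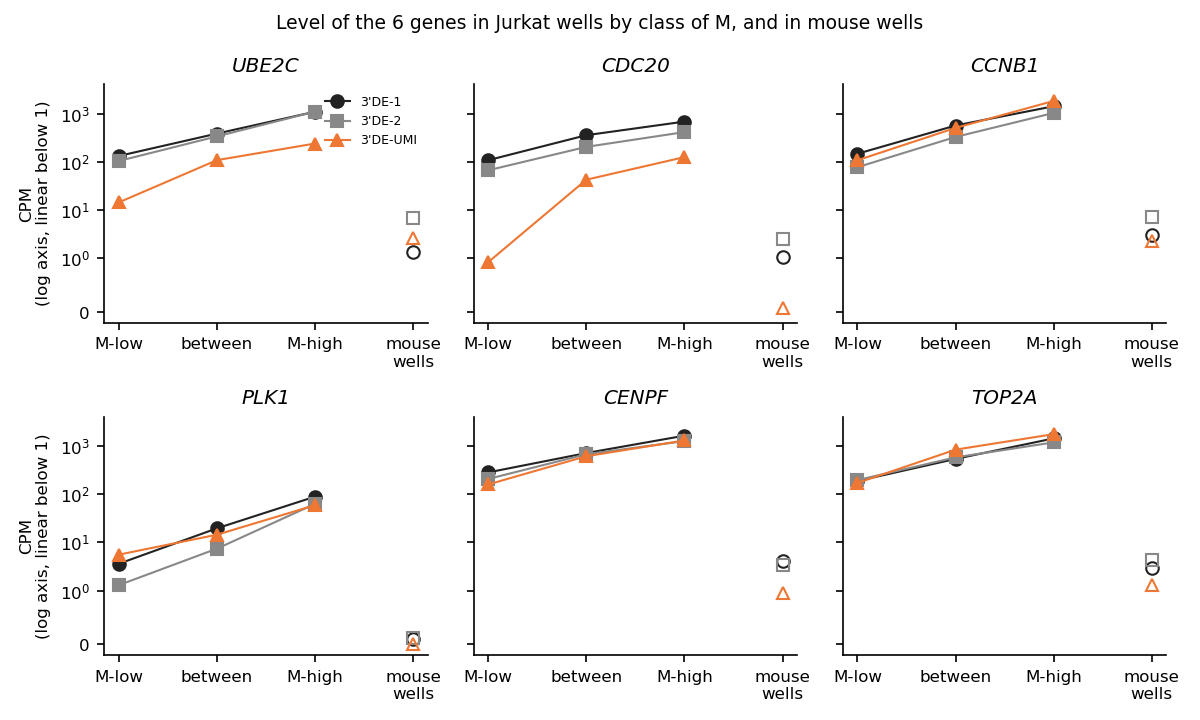
Reads CPM (log axis, linear below 1) of each of the 6 genes in M-low wells, the wells between and M-high wells of each library, summed over wells, with the level of the human gene in mouse wells as open symbols; there is 1 value per library and class. UBE2C and CDC20 of 3'DE-UMI run below those of both 3'DE libraries, while the lines of CENPF and TOP2A lie close together.

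UMIs give a count of molecules of these genes in 3'DE-UMI, made by another pipeline than the read counts. The 97 M-high wells held 350 UMIs of CCNB1, 328 of TOP2A, 228 of CENPF, 40 of UBE2C, 27 of PLK1 and 22 of CDC20. The 193 M-low wells held 42, 83, 57, 9, 4 and 3 UMIs of the same genes. A CDC20 molecule was counted in 18 M-high wells and 3 M-low wells, and a CCNB1 molecule in 80 and 32. The most UMIs of CCNB1 in 1 well was 38, in the M-high class. Reads of PLK1 amounted to 7.70 per UMI in M-high wells, on 27 UMIs, and those of CCNB1 to 18.4. As the pipelines differed, whether equal read counts of these genes stood for unequal numbers of molecules was not tested.

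The genes varied together across wells. The summed share of UBE2C, CDC20 and CCNB1 and the summed share of PLK1, CENPF and TOP2A had a Spearman's rho of 0.63 over 383 wells of 3'DE-1, 0.53 over 426 of 3'DE-2 and 0.37 over 385 of 3'DE-UMI. Between single genes the median over pairs was 0.45, 0.35 and 0.23. The strongest pair was CDC20 with CCNB1 in 3'DE-1 (0.57) and CCNB1 with CENPF in 3'DE-2 (0.49) and 3'DE-UMI (0.34). All 6 genes were found in 69 Jurkat wells of 3'DE-1, 50 of 3'DE-2 and 7 of 3'DE-UMI. Wells of 1 library share a chip and an amplification, and both shares have the same denominator, so these values are descriptions.

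A test of each gene needs wells chosen without it. The wells were therefore chosen again by the share of 3 of the 6 genes, and the other 3 were tested on sums of reads per library and class, with edgeR's quasi-likelihood test, the library as a block and Benjamini-Hochberg adjustment over all genes tested. All 6 held-out genes were higher in the wells with the higher share, in each of the 3 libraries. In wells chosen by UBE2C, CDC20 and CCNB1, PLK1 was higher by 4.22 ± 0.54 on the log2 scale (SE, n = 3 libraries, adjusted p = 0.0031). In the same wells TOP2A was higher by 1.83 ± 0.13 (adjusted p = 5.5e-05) and CENPF by 1.64 ± 0.16 (adjusted p = 3.1e-04). In wells chosen by PLK1, CENPF and TOP2A, UBE2C was higher by 2.22 ± 0.25 (adjusted p = 0.0088). In these CCNB1 was higher by 2.16 ± 0.18 (adjusted p = 0.0022) and CDC20 by 1.62 ± 0.18 (adjusted p = 0.0098). Of all genes tested, 0.361% were called higher in the wells chosen by UBE2C, CDC20 and CCNB1 and 0.344% in those chosen by PLK1, CENPF and TOP2A.

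The levels behind these tests are given here for 3 of the genes. Held-out CCNB1 stood at 1164 against 265 CPM in 3'DE-1, 771 against 126 in 3'DE-2 and 1302 against 399 in 3'DE-UMI. Held-out TOP2A stood at 1170 against 272, 1013 against 270 and 1241 against 436 CPM. Held-out UBE2C stood at 1012 against 176, 1021 against 162 and 175 against 66.3 CPM. For each of these 3 genes the low value lay below the high value in every library, and the log2 ratio was smallest for 3'DE-UMI.

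Choosing wells by the other 5 genes left each gene out in turn and gave like values. The differences on the log2 scale were 4.21 ± 0.63 for PLK1 (SE, n = 3 libraries, adjusted p = 0.028) and 2.43 ± 0.16 for CCNB1 (adjusted p = 5.0e-04). They were 2.35 ± 0.17 for UBE2C (adjusted p = 4.4e-06) and 2.20 ± 0.19 for CDC20 (adjusted p = 6.9e-04). For TOP2A the difference was 1.92 ± 0.13 (adjusted p = 1.8e-04) and for CENPF 1.79 ± 0.13 (adjusted p = 4.3e-04). PLK1 lost its call without 3'DE-1 (4.06 on the log2 scale, adjusted p = 0.26), and its low wells held only 19, 35 and 37 PLK1 reads in 3'DE-1, 3'DE-2 and 3'DE-UMI. The shares of genes called higher in these 6 comparisons were 0.418% in wells chosen without PLK1, 0.323% without CCNB1, 0.616% without UBE2C, 0.467% without CDC20, 0.363% without TOP2A and 0.38% without CENPF. CDC20 was the only gene whose log2 ratio was larger in 3'DE-UMI than in both 3'DE libraries (2.69 against 1.96 and 2.01). Its levels in 3'DE-UMI were 110 against 17.0 CPM, the lower value on 90 reads.

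**Figure D3:**
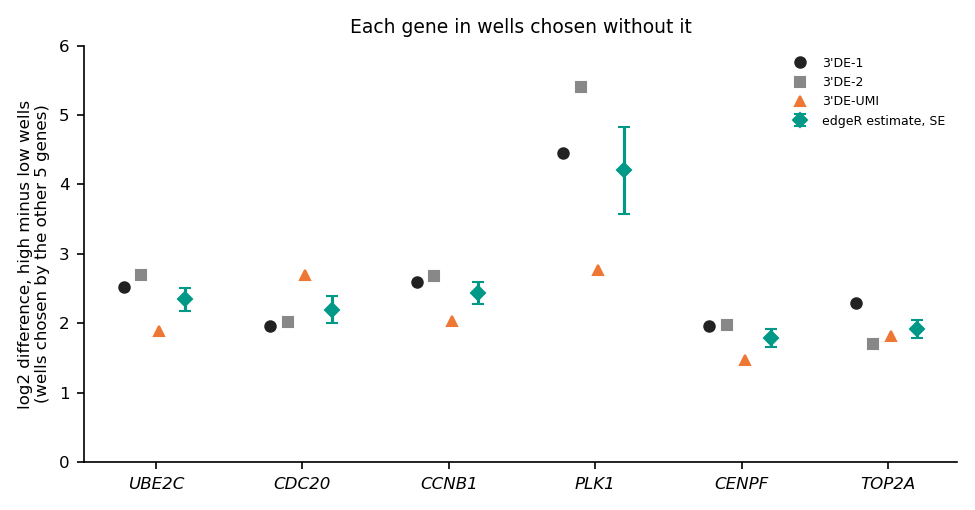
Log2 difference of each of the 6 genes between high and low wells chosen by the other 5 genes: 1 point per library from CPM, and the edgeR estimate from 3 libraries with its model SE. All points lie above 0, the PLK1 points are the most spread out, and for 4 genes the 3'DE-UMI point is the lowest.

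Whether these differences depended on the protocol was tested with an interaction term on the held-out genes. The difference in 3'DE-UMI minus that in the 3'DE libraries was -0.80 ± 0.23 for CENPF (SE, adjusted p = 0.055) and -1.22 ± 0.28 for UBE2C (adjusted p = 0.098) in wells chosen by the other 3 genes. For CCNB1 it was -0.69 ± 0.26 (adjusted p = 0.26), for TOP2A -0.50 ± 0.23 (adjusted p = 0.29), for PLK1 -1.49 ± 0.88 (adjusted p = 0.44) and for CDC20 0.45 ± 0.37 (adjusted p = 0.65). None of the 6 passed the threshold of 0.05, which does not show that the protocols gave equal differences. The backgrounds of these fits differed widely. In wells chosen by UBE2C, CDC20 and CCNB1, where PLK1, CENPF and TOP2A were tested, 1.07% of all genes were called with a higher and 1.45% with a lower difference in 3'DE-UMI, and in wells chosen by PLK1, CENPF and TOP2A it was 0.00827% and 0.0248%. The fit has 1 residual degree of freedom and takes the lone 3'DE-UMI library to vary like the others. Each of the 6 genes was also read in a smaller share of Jurkat wells in 3'DE-UMI than in 3'DE-1 and 3'DE-2. For UBE2C it was 16.4% against 59.5% and 56.8%, and for TOP2A 52.5% against 76.0% and 73.5%. Its wells were thus chosen on sparser reads, with 197 low wells by UBE2C, CDC20 and CCNB1 and 193 by the other 3 genes. Whether this made its differences smaller was not tested.

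Outside the rule, few genes were called between M-high and M-low wells. The 12 genes that chose the Jurkat wells and the 6 genes of M were left out of the genes tested. Of 10519 genes tested, 37 were called higher (0.352%) and 5 lower (0.0475%) in M-high wells. All 37 were higher in each of the 3 libraries, and all 5 were lower in each, which a call on these same libraries favours. Of all 10519 genes tested, 1483 were higher and 1640 lower in all 3 libraries. Over the genes called higher the median log2 difference was 1.68, with a range of 0.52 to 3.59, and 32 of the 37 differed by at least 2-fold. Over those called lower the median was -1.57, with a range of -2.43 to -0.48. The median over all genes tested was -0.07. Leaving out 3'DE-1 reduced the calls to 19 of 10212, 17 higher and 2 lower, all of which were among the 42. Without the library as a block edgeR called 0 of 9597 genes, with 155 at an unadjusted p below 0.05. DESeq2 with the block called 145 of 10519.

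The tables give Ensembl identifiers and pair none with a gene symbol, so only 2 genes in each direction are named, by identifier. They were those with the smallest p among genes that averaged at least 50 CPM and differed the same way in all libraries. ENSG00000138778 stood at 127, 134 and 73.1 CPM in the M-low wells of 3'DE-1, 3'DE-2 and 3'DE-UMI and at 679, 877 and 443 in the M-high wells (log2 difference 2.56 ± 0.14 SE, adjusted p = 3.1e-04). ENSG00000182481 stood at 246, 128 and 349 CPM in M-low wells and at 924, 416 and 1231 in M-high wells (1.80 ± 0.12, adjusted p = 4.9e-04). For both, the ratio between the classes was similar in the 3 libraries although their levels were not, which choosing by the smallest p favours. In the other direction ENSG00000132646 fell from 356, 437 and 1137 CPM in M-low wells to 153, 180 and 452 in M-high wells (-1.29 ± 0.12, adjusted p = 0.0022). ENSG00000112118 fell from 337, 172 and 341 CPM to 104, 62.7 and 119 (-1.57 ± 0.17, adjusted p = 0.0058), a call that was lost without 3'DE-1 (adjusted p = 0.11). That all 4 differed the same way in every library follows from how they were chosen.

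Known cell cycle genes were followed by identifier with the human phase pairs distributed with scran, a set of gene pairs whose order within a cell changes with the phase of the cycle. It was chosen after the tables were seen. From these pairs 160 genes ranked high in G2 and M, 193 in S and 203 in G1 were taken. The lists follow the cells they were made from, and they place UBE2C, CENPF and TOP2A under G2M but CDC20 under G1, so that the list named G1 is not free of genes of mitosis. The rule's own genes were left out of every count.

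Of the 3 phase lists the G2M list had the most calls. Of its 143 genes tested, 12 were called higher and 0 lower by edgeR (38 higher and 2 lower at an unadjusted p below 0.05), where DESeq2 called 25 higher and 0 lower. They had a median log2 difference of 0.11 and an upper quartile of 0.97. Of 181 G1 genes tested, 9 were called higher and 1 lower, with a median of 0.07. Of 166 S genes tested 0 were called in either direction by edgeR (4 higher and 16 lower at an unadjusted p below 0.05), with a median of -0.13, where DESeq2 called 0 higher and 6 lower. None of the 5 genes called lower over all genes was thus on the S list, ENSG00000132646 and ENSG00000112118 included. The S count therefore holds for this list only and does not show that genes of S phase in general were unchanged. Over all genes tested the median was -0.07 and the upper quartile 0.35, edgeR called 0.352% higher and 0.0475% lower, and 2.91% were higher and 2.72% lower at an unadjusted p below 0.05. DESeq2 called 1.08% higher and 0.484% lower of the 9295 genes to which it gave an adjusted p. Of the 37 genes called higher, 30 (81.1%) were among the genes of the whole cell cycle set, and they made up 2.71% of the 1108 genes of that set that were tested. The set held 10.5% of all genes tested. Without 3'DE-1 the calls were 6 higher for the G2M list and 3 higher for the G1 list, where 0.166% of all genes tested were called higher.

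Per well, the share of human reads on the G2M list was higher in M-high wells by nearly the same amount in each library. The medians over wells were 0.660% in M-low and 1.17% in M-high wells of 3'DE-1, 0.656% and 1.17% in 3'DE-2, and 0.695% and 1.22% in 3'DE-UMI. The mean difference over libraries was 0.517 ± 0.010 percentage points (SD, n = 3), higher in 3 of 3 libraries, and an exact sign-flip permutation test over 3 libraries gives p = 0.25, the smallest it can. The share on the G1 list was also higher in each library, by 0.231 ± 0.099 percentage points (SD, n = 3, exact permutation p = 0.25). On the S list the medians were 1.80% and 1.62%, 1.51% and 1.46%, and 1.20% and 1.21% in M-low and M-high wells, a mean difference of -0.076 ± 0.097 percentage points (exact permutation p = 0.50), within the spread of the libraries. On the G2M list the ranges between the quartiles were apart in the 3'DE libraries, where the upper quartiles of M-low wells were 0.810% and 0.835% and the lower quartiles of M-high wells 0.947% and 0.988%. They overlapped in 3'DE-UMI, at 1.11% and 0.852%.

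**Figure D4:**
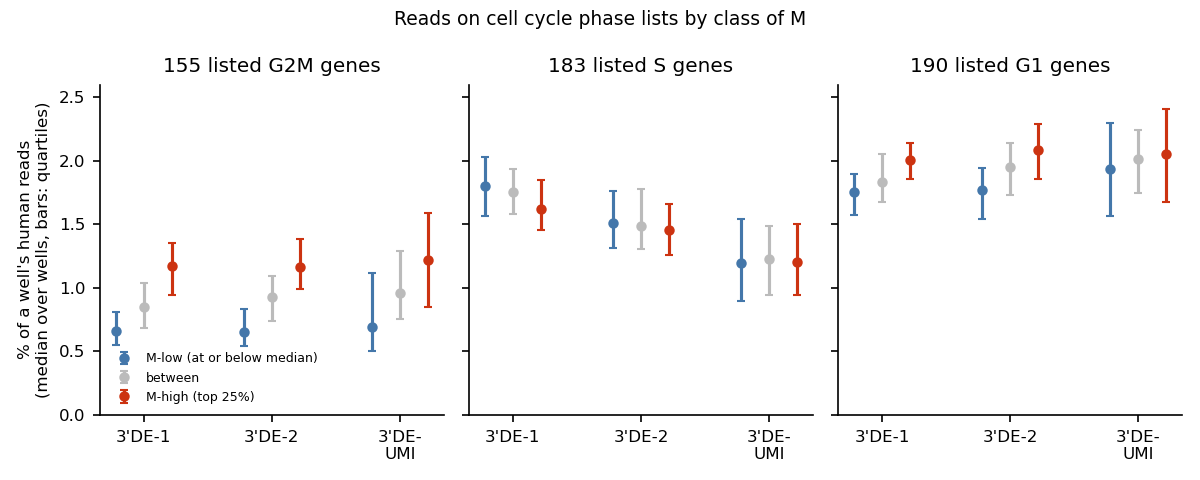
Share of each well's human reads on the G2M, S and G1 lists, without the genes of the rule, in M-low wells, the wells between and M-high wells of each library; points are medians over wells and bars the quartiles. On the G2M list the medians are 0.660, 0.656 and 0.695% in M-low and 1.17, 1.17 and 1.22% in M-high wells, and on the S list of 3'DE-UMI they are within 1.20 to 1.23%.

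Depth differed between the classes in both directions. Median reads per well in M-high and M-low wells were 28527 and 25232.5 in 3'DE-1, 31251 and 44715 in 3'DE-2, and 23485 and 19156 in 3'DE-UMI. Human genes per well after thinning to 5000 human reads had medians of 1650.5 and 1564, 1393 and 1355, and 778 and 698 in M-high and M-low wells. M-high wells thus had more genes than M-low wells at equal depth in 3 of 3 libraries, by 0.09 ± 0.06 on the log2 scale (SD, n = 3, exact permutation p = 0.25, the smallest possible). The wells between the classes lay between them in 3'DE-1 (1585) and 3'DE-2 (1379) but above both in 3'DE-UMI (843). Spearman's rho of M with reads per well was 0.17, 0.06 and 0.23 over the Jurkat wells of the 3 libraries. With M-low wells matched to the M-high wells in depth, 31 of 9851 genes were called higher and 4 lower. Of these 35, 34 were among the 42.

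The reads that chose the Jurkat wells were also compared between the classes. Reads of the J set had medians of 1786 and 1797 CPM in M-high and M-low wells of 3'DE-1, 2126 and 2278 in 3'DE-2, and 1699 and 2470 in 3'DE-UMI, where the log2 ratio of -0.54 was larger than in the 3'DE libraries (-0.01 and -0.10). The median of the C set was 0 in every class and library. The share of mouse reads had medians of 0.198% and 0.254%, 3.90% and 4.51%, and 1.75% and 1.75%. Reads per UMI in 3'DE-UMI had medians of 12.7 in M-high and 12.6 in M-low wells. Wells with 2 Jurkat cells were not looked for, and no doublet caller was run. The libraries shared 469 to 539 well barcodes, which come from the fixed set of the chip, and of the 61 to 69 shared barcodes that were Jurkat wells in both libraries of a pair, 3 or 4 were M-high in both.

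The low UBE2C and CDC20 of 3'DE-UMI were also seen over all Jurkat wells, which contain the M-high and M-low wells. These values were compiled after those above were seen and are given with no test. UBE2C stood at 457 CPM in 3'DE-1, 374 in 3'DE-2 and 105 in 3'DE-UMI, and CDC20 at 326, 176 and 47.6. Against 3'DE-2, which came from the same cell mixture, the log2 ratios of 3'DE-UMI were -1.83 for UBE2C and -1.89 for CDC20. Between the 3'DE libraries the log2 ratio of 3'DE-2 to 3'DE-1 was -0.29 for UBE2C and -0.89 for CDC20.

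For the other 4 genes 3'DE-UMI did not lie below both 3'DE libraries. CCNB1 stood at 597, 343 and 691 CPM in 3'DE-1, 3'DE-2 and 3'DE-UMI and TOP2A at 611, 503 and 808. CENPF stood at 752, 550 and 607 CPM and PLK1 at 30.8, 15.7 and 22.5. The 3'DE-UMI value of CENPF and PLK1 lay between those of the 3'DE libraries, and that of CCNB1 and TOP2A above both. M was thus made up differently. In M-high wells UBE2C gave 17.3% and 21.8% of the reads of M in the 3'DE libraries and 4.54% in 3'DE-UMI, and CCNB1 gave 22.4%, 20.5% and 34.5%. The protocol cannot be told apart from the single 3'DE-UMI library.

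**Figure D5:**
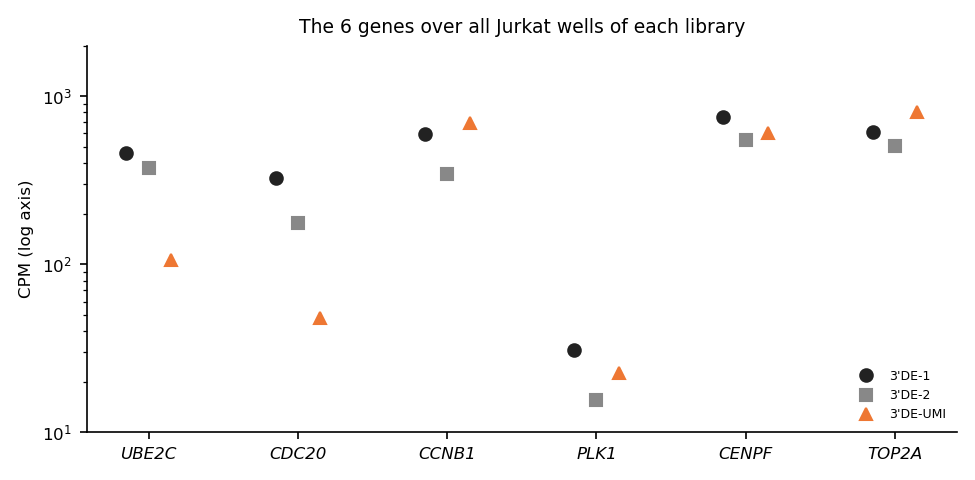
Reads CPM human reads (log axis) of the 6 genes, summed over all Jurkat wells of each library, 1 point per library. UBE2C and CDC20 lie lower in 3'DE-UMI (105 and 47.6) than in both 3'DE libraries, and the other 4 genes do not.

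Over all genes outside the rule, the interaction with protocol called 49 of 12125, with the M-high minus M-low difference higher in 3'DE-UMI for 16 (0.132%) and lower for 33 (0.272%). With UMI counts in place of reads for that library the same test called 0 of 11336 genes by edgeR. At an unadjusted p below 0.05 it gave 191, while DESeq2 on the reads called 101 of 12125.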

How the data were processed

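Wells of 3 ICELL8 libraries were analysed. The deposited read tables hold raw counts of reads per gene and well, made by the authors with mappa and STAR 2.7.0b on a combined hg19 and mm10 reference from Cell Ranger 1.2.0. The deposited UMI counts of 3'DE-UMI had been made with the Drop-seq tools and STAR 2.4.2a. The methods state that reads were downsampled. Whether this preceded the deposited tables, and how reads shared between gene copies were treated, is not given in the sources used here. Table totals were 35581264, 109702878 and 44883618 reads and 3833017 UMIs. In 3'DE-2 the deepest 10% of M-low wells held 59.1% of that class's reads, so sums lean on few wells. Reads are not independent molecules.

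The members, genes and lists were chosen with earlier results of these data known. Groups came from the titles in the labels. Reads of human genes were summed per library and class, giving 6 sums, and fitted in edgeR 4.0.16 (filterByExpr, TMM, quasi-likelihood, two-sided) with the library as a block and a threshold of 0.05 on the adjusted p. The 18 genes of the rule stayed in the library sizes and left the genes tested, except held-out genes. The labels do not say that the libraries came from separate cultures, so p-values cover only these libraries, whose differences may be technical. The SE printed with edgeR estimates comes from its F statistic, with variance estimates that draw on all genes. It is a model SE and not the spread of the values of single libraries. Values per library were compared by exact sign-flip permutation. DESeq2 1.42.0 was an alternative. The fits were also run on simulated sums with the same dispersion for every gene. These do not carry the uneven depth of the wells, and no result here rests on them. Reads were thinned without replacement, with seed 1.

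The plan was to name the 12 leading genes in each direction and the 3 most abundant genes of lists written as symbols. No table here pairs the Ensembl identifiers with symbols (0 rows of the RefSeq gene table hold an Ensembl identifier), so those lists, the mitochondrial share, the check of further cell line markers and sequences of the genes could not be given. In their place stand scran 1.30.0 phase pairs, with a gene taken for a phase when it occurred in at least 20 pairs of that phase and was the higher partner in at least 90% of them. The 24 genes that met this for more than 1 phase were dropped.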

Additional observations from a re-analysis of the deposited data

Results flagged for a closer look

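The difference between M-high and M-low wells differed between the protocols for 49 genes by the test of the interaction itself (edgeR, adjusted p below 0.05 over 12125 genes), 16 with the higher difference in 3'DE-UMI and 33 with the lower. The test has 1 residual degree of freedom and 1 library on one side. With UMI counts for that library 0 of 11336 genes were called, with wells thinned to 2000 human reads 80 of 5536. None of the 6 held-out genes of M was among the calls of its own interaction test. Groups of 3 libraries are too small for the search for single outlying samples.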

How the results depend on the processing

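With the library as the replicate block, 42 of 10519 genes were called between M-high and M-low wells. The count was 145 of 10519 by DESeq2, 154 of 17779 with no filter on low counts and 68 of 4500 with wells thinned to 2000 human reads. It was 73 of 10356 with at least 95% human reads and 122 of 10094 with UMI counts for 3'DE-UMI. With no replicate block the count was 0 of 9597 (edgeR, 155 at an unadjusted p below 0.05, against 592 with the block). At an adjusted p of 1e-04 it was 0 of 10519. Leaving out 1 library gave 19 of 10212 without 3'DE-1, 49 of 9497 without 3'DE-2 and 36 of 10550 without 3'DE-UMI. RLE size factors, M after thinning, wells of at least 5000 reads, depth-matched wells and the bottom 25% of M gave 35 to 49. Removal of the deepest 10% of wells, chosen after seeing the data, gave 45. These fits tested 9674 to 10812 genes. For the interaction with protocol the 49 calls of 12125 genes became 101 of 12125 by DESeq2 and 339 of 17779 with no filter. They became 80 of 5536 after thinning and 0 of 11336 with UMI counts. The cause of these changes was not tested.

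The log2 ratio of reads per well (-0.015) turned to 0.000766 with at least 95% human reads and ranged from -0.17 to 0.24 with 1 library left out, positive without 3'DE-2. The difference in mouse share (-0.222 percentage points) turned to 0.341 with at least 95% human reads. The held-out genes were fitted again only with 1 library left out and by DESeq2, not under the other alternatives. In these fits each stayed higher and called, except PLK1 chosen by the other 5 genes. Its values without 1 library were 3.52 to 4.95, and it lost its call without 3'DE-1.

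Under DESeq2 the lists had 25 G2M, 14 G1 and 65 cell cycle genes called higher, and 6 S, 5 G1 and 23 cell cycle genes called lower. Of all genes to which it gave an adjusted p, DESeq2 called 1.08% higher and 0.484% lower. After thinning, 3 of 106 S and 8 of 712 cell cycle genes were called lower, against 0.422% of all genes tested. Without the deepest 10% of wells it was 2 of 164 and 4 of 1100, against 0.0491%. With 1 library left out, 6 to 11 G2M, 3 to 9 G1 and 11 to 29 cell cycle genes were called higher. In these fits 0 to 2 S, 1 to 2 G1 and 1 to 7 cell cycle genes were called lower. Over all genes tested, 0.166% to 0.390% were called higher and 0.0196% to 0.126% lower.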
